A study of Homo sapiens with 15 samples.

Results

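The 30 genes described here are targets of the hypoxia-inducible factors (HIFs) outside glycolysis, a list of names drawn up by function and not by a threshold on these arrays. The list was chosen with earlier results of these data known, so shares of members called are descriptions and not independent support. Of the 30 genes, 29 were measured among the 19775 genes read from the arrays, and CA9 was not analysed here. HIFs are transcription factors made of an α subunit (HIF-1α, from HIF1A, or HIF-2α, from EPAS1) and the partner ARNT. With oxygen, prolyl hydroxylases of the EGLN family mark the α subunit, the VHL protein recruits it for degradation, and little HIF remains. When hydroxylation slows, the pair binds a short core motif near its targets, whose products serve blood vessel growth, oxygen-saving metabolism, removal of mitochondria, matrix and protein folding, iron uptake and feedback on HIF itself.

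Expression was measured in the established cell line PEO1, derived from a human ovarian cancer, after live cells had been sorted by antibodies to the surface proteins CD90 (from THY1) and CD133 (from PROM1). The sort gave a CD90+/CD133+ fraction, a CD90+/CD133- fraction and a CD90-/CD133- fraction, each with 5 arrays, and the study treats CD90+ cells as stem-like. Its methods for the arrays set CD90+/CD133- cells against CD90-/CD133- cells, and the comparisons with the CD90+/CD133+ fraction follow from the labels. All 3 fractions came from 1 parental line kept in RPMI-1640 medium with fetal bovine serum, with no drug and no lowered oxygen named in the labels. The labels number the replicates 1 to 5 in each fraction, and the methods call them biological replicates for the CD90+/CD133- and CD90-/CD133- fractions. A code in the labels is shared by the 3 samples of a number, and numbers 4 and 5 carry the same code, so whether those 2 are separate cultures or sorts was not stated. RNA came from whole fractions, so more transcript per cell and more cells that carry the transcript cannot be told apart.

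Values are probe set intensities on a linear scale that the authors had normalized between arrays, with values under 16 set to 16. Each gene was read from its brightest probe set, a group mean is the mean on the log2 scale turned back to intensity, and 5 arrays per fraction limit the precision. A gene is called changed where limma, fitted over all 19775 genes, gave a Benjamini-Hochberg adjusted p under 0.05. Same-numbered arrays moved together in all comparisons (correlations of 0.200 to 0.853), so a second fit took the replicate number as a block, and its adjusted p is named as such. THY1 averaged 1417 in CD90+/CD133+ cells, 971 in CD90+/CD133- cells and 76.2 in CD90-/CD133- cells. PROM1 averaged 876 in CD90+/CD133+ cells, 42.2 in CD90+/CD133- cells and 21.4 in CD90-/CD133- cells. Each was thus higher where the label was positive for its product. On the CD90+/CD133- arrays PROM1 was at 23.8, 21.5, 68.2, 24.6 and 156, with replicates 3 and 5 above the others. Epithelial markers were bright in every fraction, with summed intensities of 24771 to 35581 in CD90+/CD133+ cells, 26730 to 35216 in CD90+/CD133- cells and 39745 to 49300 in CD90-/CD133- cells, with EPCAM called higher and KRT8 and KRT18 called lower in both CD90+ fractions (EPCAM in CD90+/CD133+ cells not with the block, adjusted p = 0.054). Markers of other cell types summed to far less. The summed intensity was 225 to 287 in CD90+/CD133+ cells, 216 to 244 in CD90+/CD133- cells and 306 to 368 in CD90-/CD133- cells for 6 fibroblast markers, of which COL3A1 and LUM were at 16 on every array. Among these COL1A1 averaged 136 in CD90+/CD133+ cells, 104 in CD90+/CD133- cells and 114 in CD90-/CD133- cells and was not called, while FAP averaged 36.5 in CD90+/CD133+ cells, 35.4 in CD90+/CD133- cells and 144 in CD90-/CD133- cells and was called lower in both CD90+ fractions (log2 fold change -1.98 in CD90+/CD133+ cells with adjusted p = 8.22e-05, and -2.02 in CD90+/CD133- cells with adjusted p = 2.51e-04). For 3 leukocyte markers it was 126 to 216 in CD90+/CD133+ cells, 143 to 201 in CD90+/CD133- cells and 94.9 to 119 in CD90-/CD133- cells, with PTPRC at 16 throughout. CD14 averaged 112 in CD90+/CD133+ cells, 109 in CD90+/CD133- cells and 56.0 in CD90-/CD133- cells and was called higher in both CD90+ fractions (log2 fold change 1.00 in CD90+/CD133+ cells with adjusted p = 0.0302, and 0.96 in CD90+/CD133- cells with adjusted p = 0.00714). For 4 endothelial markers it was 110 to 132 in CD90+/CD133+ cells, 99.7 to 117 in CD90+/CD133- cells and 97.6 to 116 in CD90-/CD133- cells, with CDH5 and KDR at 16 throughout and none called. The gap between 3' and 5' control probes of GAPDH, a sign of RNA quality, averaged 0.0498 ± 0.0408 in CD90+/CD133+ cells, 0.186 ± 0.0789 in CD90+/CD133- cells and 0.0565 ± 0.0317 in CD90-/CD133- cells on the log2 scale (SD, n = 5). The CD90+/CD133- fraction differed from CD90-/CD133- cells with p = 0.0159 and from CD90+/CD133+ cells with p = 0.0238 (2-sided exact permutation tests, 0.0714 each after adjustment over 6 comparisons), and the same gap of ACTB gave an adjusted p of 0.143 or more in each comparison. The part of marker levels and RNA quality in the results was not tested.

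The genes that encode the HIF α subunits themselves were higher in both CD90+ fractions. HIF1A averaged 3573 in CD90+/CD133+ cells, 4364 in CD90+/CD133- cells and 1748 in CD90-/CD133- cells (adjusted p from limma against CD90-/CD133- cells of 0.00147 for CD90+/CD133+ and 1.34e-04 for CD90+/CD133- cells). EPAS1 averaged 229 in CD90+/CD133+ cells, 295 in CD90+/CD133- cells and 49.0 in CD90-/CD133- cells (adjusted p of 3.10e-05 for CD90+/CD133+ and 3.27e-05 for CD90+/CD133- cells). These are transcript levels, and the arrays do not measure the HIF proteins, whose level is set largely by degradation.

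Promoters are shown for 4 called members, namely the pair with the largest rise and the pair with the largest fall among called members with 1 entry each in the table of promoters used (RefSeq, GRCh38.p14, 250 bases before to 50 after the annotated start). The HIF core was searched as ACGTG and GCGTG on both strands, and matches are in capitals, with overlapping matches run together. The windows are P4HA1 at chr10:73096817-73097116 on the minus strand, ERO1A at chr14:52695509-52695808 on the minus strand, ADM at chr11:10304823-10305122 on the plus strand and BHLHE40 at chr3:4979187-4979486 on the plus strand, each printed 5′ to 3′.
P4HA1: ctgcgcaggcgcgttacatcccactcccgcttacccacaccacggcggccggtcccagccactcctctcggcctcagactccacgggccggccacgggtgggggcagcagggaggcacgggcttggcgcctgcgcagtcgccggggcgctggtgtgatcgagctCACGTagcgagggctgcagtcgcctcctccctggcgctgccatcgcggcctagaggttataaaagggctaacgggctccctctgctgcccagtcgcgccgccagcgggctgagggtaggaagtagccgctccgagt
ERO1A: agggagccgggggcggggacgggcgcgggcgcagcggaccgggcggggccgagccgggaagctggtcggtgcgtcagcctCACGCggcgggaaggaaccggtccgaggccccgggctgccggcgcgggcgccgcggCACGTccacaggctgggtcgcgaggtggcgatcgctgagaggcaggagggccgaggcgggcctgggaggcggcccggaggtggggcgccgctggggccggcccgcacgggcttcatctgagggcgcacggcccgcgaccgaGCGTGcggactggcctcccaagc
ADM: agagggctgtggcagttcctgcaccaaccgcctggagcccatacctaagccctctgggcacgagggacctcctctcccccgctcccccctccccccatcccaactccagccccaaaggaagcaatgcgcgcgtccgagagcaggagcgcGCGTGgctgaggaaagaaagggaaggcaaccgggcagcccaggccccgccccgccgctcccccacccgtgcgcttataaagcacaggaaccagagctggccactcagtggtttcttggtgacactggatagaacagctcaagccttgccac
BHLHE40: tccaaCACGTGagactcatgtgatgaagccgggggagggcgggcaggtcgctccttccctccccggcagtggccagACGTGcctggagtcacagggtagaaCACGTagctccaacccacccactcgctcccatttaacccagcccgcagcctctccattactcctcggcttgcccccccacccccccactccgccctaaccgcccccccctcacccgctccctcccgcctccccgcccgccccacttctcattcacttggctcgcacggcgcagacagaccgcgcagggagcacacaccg
P4HA1 and ADM each hold 1 match, ERO1A holds 3 and BHLHE40 holds 4, so both genes that were higher and genes that were lower in CD90+ cells carry the letters. Of the 29 measured members, 24 had entries, with 35 windows in all, and 30 of these windows (85.7%) hold either core. Of all 35116 windows of that resource 48.4% do (21.4% hold ACGTG and 36.5% hold GCGTG), and 61.3% of the 12106 windows of genes expressed here (mean log2 intensity over 6). A match is a run of letters and not evidence of binding, which was not measured.

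The members did not move as a block in either CD90+ fraction. Against CD90-/CD133- cells, 7 of 29 members were higher and 4 were lower in CD90+/CD133+ cells, and 18 did not pass. Over all genes tested 9.57% were called higher and 10.8% lower in this comparison, and of the members 24.1% were higher and 13.8% lower. Of the 29 measured members 25 were expressed (mean log2 intensity over 6), against 9988 of all 19775 genes. The shares of all genes, here and below, thus take in many genes that were not expressed. Shares called among expressed genes are not given, so how far the members exceed expressed genes is not shown. In CD90+/CD133- cells 6 members were higher, 1 was lower and 22 did not pass, which is 20.7% of members higher and 3.45% lower, beside 9.08% higher and 9.88% lower over all genes. With the replicate block the counts were 11 higher and 6 lower in CD90+/CD133+ cells (all genes: 13% and 15.2%) and 8 higher and 2 lower in CD90+/CD133- cells (all genes: 12% and 13.6%). These 2 comparisons share the CD90-/CD133- arrays, so genes called in both are not independent counts. VEGFA, P4HA1, INSIG2, AK4 and TFRC were higher and ADM was lower in both, ERO1A was called only in CD90+/CD133- cells, and HILPDA, BNIP3, BHLHE40, NDRG1 and STC2 were called only in CD90+/CD133+ cells.

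The median log2 fold change over the members was 0.10 in CD90+/CD133+ cells and 0.24 in CD90+/CD133- cells, beside 0 for all genes in both. The value for all genes takes in genes held at the floor, whose change is 0, and the signed median of expressed genes is not given here. The median size of change, without sign, was 0.44 over the members and 0.26 over the 9988 expressed genes in CD90+/CD133+ cells, and 0.32 over the members and 0.28 over the expressed genes in CD90+/CD133- cells. By the methods' rule of 1.5-fold between averages, with no test, 6 members were higher and 4 lower in CD90+/CD133+ cells (all genes: 6.11% and 7.15%), and 6 were higher and 1 lower in CD90+/CD133- cells (all genes: 6.85% and 6.89%). The higher counts include CITED2 and EDN1, which limma did not call.

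**Figure D1:**
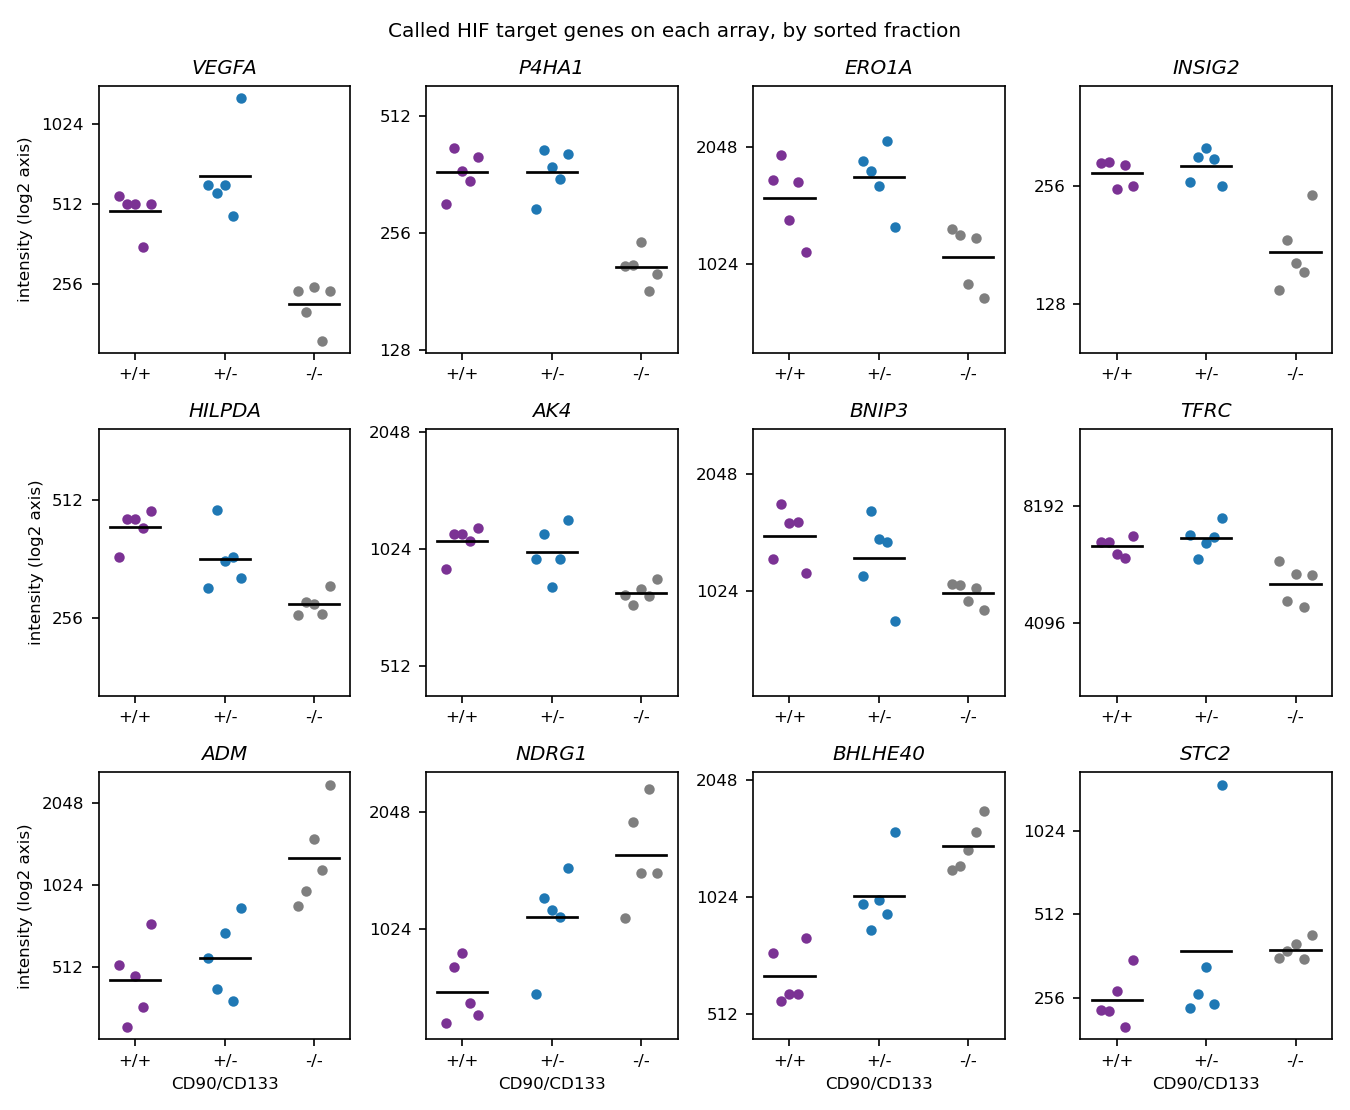
Intensity of the 12 called members on each array (log2 axis) by fraction, +/+ for CD90+/CD133+, +/- for CD90+/CD133- and -/- for CD90-/CD133-, with 1 point per array and a bar at the mean of the log2 values. VEGFA and P4HA1 lay above all CD90-/CD133- arrays in both CD90+ fractions, while ADM lay below all of them.

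Among the secreted factors, VEGFA and ADM moved in opposite directions. VEGFA, the main growth factor for blood vessels, had intensities of 550.4, 512, 512, 352 and 514 on the CD90+/CD133+ arrays, 603, 561, 602, 462 and 1281 on the CD90+/CD133- arrays and 240.5, 202, 250.4, 157 and 241 on the CD90-/CD133- arrays. Every CD90+ array lay above every CD90-/CD133- array. The mean was 2.24-fold higher in CD90+/CD133+ cells (log2 fold change 1.16 with a standard error of 0.166, adjusted p = 0.00156 from limma) and 3.04-fold higher in CD90+/CD133- cells (log2 fold change 1.61 with a standard error of 0.274, adjusted p = 0.00437). The call held without any single array or replicate number. The 3 VEGFA probe sets with a mean of 64 or more differed in size, from 0.45 to 1.16 in CD90+/CD133+ and from 0.62 to 1.61 in CD90+/CD133- cells on the log2 scale, all of them positive.

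ADM, the precursor of the vasodilator adrenomedullin, fell furthest of the members. Its intensities were 521, 307, 473, 363 and 736 on the CD90+/CD133+ arrays, 550.3, 423, 682, 383 and 842 on the CD90+/CD133- arrays and 858, 974, 1512, 1163 and 2392 on the CD90-/CD133- arrays. The groups did not overlap in either comparison, although the highest CD90+/CD133- array came close to the lowest CD90-/CD133- array. The log2 fold change was -1.49 in CD90+/CD133+ cells (standard error 0.332, adjusted p = 0.0137 from limma) and -1.22 in CD90+/CD133- cells (standard error 0.328, adjusted p = 0.0328). The call in CD90+/CD133- cells was lost without CD90+/CD133- replicate 1, 2, 3 or 4 or CD90-/CD133- replicate 3 or 4 (adjusted p of 0.0508 to 0.0760), and without replicate number 1, 2, 3 or 4 as a whole (0.0543 to 0.129), while the replicate block gave 0.00944. In CD90+/CD133+ cells it was lost without replicate number 2, 3 or 4 (0.0516 to 0.0728).

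STC2, which encodes the glycoprotein hormone stanniocalcin-2, was called lower in CD90+/CD133+ cells only. It was at 233, 231, 272, 202 and 350.2 on the CD90+/CD133+ arrays, 237, 264, 333, 243 and 1503 on the CD90+/CD133- arrays and 358, 377, 400.2, 353 and 431 on the CD90-/CD133- arrays. The CD90+/CD133+ arrays all lay below the CD90-/CD133- arrays, and so did 4 of the 5 CD90+/CD133- arrays, while replicate 5 of that fraction stood far above the rest. The log2 fold change was -0.60 in CD90+/CD133+ cells (standard error 0.142, adjusted p = 0.0181 from limma), and this call was lost with all 3 fractions in 1 fit (adjusted p = 0.420), which takes in the spread of CD90+/CD133- arrays, and without replicate number 1, 2, 3 or 4 (0.0596 to 0.0947). In CD90+/CD133- cells it was -0.02 (standard error 0.495, adjusted p = 1), and -0.52 with adjusted p = 0.0157 without CD90+/CD133- replicate 5.

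EDN1, the precursor of the vasoconstrictor endothelin-1, varied widely between replicate numbers. It was at 565, 92.3, 199.7, 112 and 268 on the CD90+/CD133+ arrays, 445, 69.3, 152, 104 and 126 on the CD90+/CD133- arrays and 101, 45.1, 88.3, 68.2 and 152 on the CD90-/CD133- arrays. The CD90+/CD133+ array exceeded the CD90-/CD133- array of its number in 5 of 5 pairs, while the groups overlapped. The log2 fold change of 1.24 (standard error 0.536) in CD90+/CD133+ cells passed with the replicate block and not without it (adjusted p = 0.156 from limma, 0.044 with the block), and that of 0.78 in CD90+/CD133- cells passed in neither fit (adjusted p = 0.411, 0.225 with the block). ANGPTL4, a secreted inhibitor of lipoprotein lipase, averaged 74.2 in CD90+/CD133+ cells, 55.5 in CD90+/CD133- cells and 69.0 in CD90-/CD133- cells and passed in no comparison, although it was called lower in CD90+/CD133- cells without replicate number 1 (log2 fold change -0.42, adjusted p = 0.0217) or without that array of the CD90+/CD133- fraction alone (-0.41, adjusted p = 0.0117). STC1, a second stanniocalcin, was dim, at 18.4 to 26.4 on all 15 arrays, and was not called.

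Of the genes for collagen modification and protein folding, the called members P4HA1 and ERO1A were higher and the other 2 did not pass. P4HA1, a catalytic subunit of the collagen prolyl 4-hydroxylase, had intensities of 305, 424, 368, 348 and 402 on the CD90+/CD133+ arrays, 295, 419, 378, 352 and 408 on the CD90+/CD133- arrays and 211, 212, 243, 182 and 201 on the CD90-/CD133- arrays. Both CD90+ fractions lay wholly above the CD90-/CD133- arrays and close to each other. The rise was 1.76-fold in CD90+/CD133+ cells (log2 fold change 0.81 with a standard error of 0.105, adjusted p = 9.12e-04 from limma) and 1.76-fold in CD90+/CD133- cells (log2 fold change 0.82 with a standard error of 0.11, adjusted p = 0.00138), and it held without any single array or replicate number. Genes near P4HA1 on the chromosome also sat higher, since the median log2 fold change of its 30 nearest expressed genes was 0.54 in CD90+/CD133+ cells and 0.40 in CD90+/CD133- cells relative to all expressed genes. The part of the chromosomal region in the rise was not tested.

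ERO1A, an oxidase of the endoplasmic reticulum that drives disulfide bond formation, was at 1684, 1947, 1331, 1667 and 1098 on the CD90+/CD133+ arrays, 1884, 1779, 1623, 2119.6 and 1277 on the CD90+/CD133- arrays and 1260.5, 1215, 911, 1196 and 839 on the CD90-/CD133- arrays. In each replicate number both CD90+ arrays lay above the CD90-/CD133- array. The log2 fold change was 0.68 in CD90+/CD133- cells (standard error 0.168, adjusted p = 0.0233 from limma, 0.00391 with the block), and 0.50 in CD90+/CD133+ cells (standard error 0.184, adjusted p = 0.0968, 0.00423 with the block). The first call was lost without CD90+/CD133- replicate 1, 2 or 4 or CD90-/CD133- replicate 3 (adjusted p of 0.0508 to 0.0561) and without replicate number 1, 2, 3 or 4 (0.0563 to 0.0987), and the second change passed without CD90+/CD133+ replicate 5 (0.0373), with the mean of all probe sets (0.00114) and with brighter genes only in the fit (0.0374). All 3 ERO1A probe sets were higher in both fractions, and the 30 nearest expressed genes had medians of 0.32 in CD90+/CD133+ cells and 0.43 in CD90+/CD133- cells, whose part was not tested.

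The paralogous subunit P4HA2 was not called in either fraction. It averaged 197 in CD90+/CD133+ cells, 189.9 in CD90+/CD133- cells and 219.7 in CD90-/CD133- cells, with a log2 fold change of -0.16 in CD90+/CD133+ cells (adjusted p = 0.159 from limma) and -0.21 in CD90+/CD133- cells (adjusted p = 0.416). Without replicate number 5 it was called lower in CD90+/CD133- cells (log2 fold change -0.35, adjusted p = 0.0313, or 0.0173 without the CD90+/CD133- array alone), and without replicate number 3 in CD90+/CD133+ cells (-0.23, adjusted p = 0.0383, or 0.0490 without the CD90+/CD133+ array alone). PLOD2, a lysyl hydroxylase that readies collagen for cross-linking, averaged 2337 in CD90+/CD133+ cells, 2755 in CD90+/CD133- cells and 2485 in CD90-/CD133- cells and was not called.

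Of 3 lipid and sterol genes, INSIG2 and HILPDA were higher, and the lipoprotein receptor VLDLR was at the floor of 16 on every array but 1. INSIG2, which holds the sterol-sensing SREBP complex in the endoplasmic reticulum, was at 295, 295, 252, 289.9 and 257 on the CD90+/CD133+ arrays, 263, 304, 321, 301 and 256 on the CD90+/CD133- arrays and 138, 187, 163, 155 and 243 on the CD90-/CD133- arrays. The groups did not overlap, and the brightest CD90-/CD133- array, replicate 5, lay just under the CD90+ arrays. The log2 fold change was 0.67 in CD90+/CD133+ cells (standard error 0.145, adjusted p = 0.0116 from limma) and 0.73 in CD90+/CD133- cells (standard error 0.15, adjusted p = 0.0103). Without replicate number 2, 3 or 4 neither passed (adjusted p of 0.0515 to 0.0751 in CD90+/CD133+ and 0.0565 to 0.0716 in CD90+/CD133- cells). HILPDA, a lipid droplet protein that restrains lipolysis, was at 366, 459, 458, 434 and 480.2 on the CD90+/CD133+ arrays, 305, 482, 358, 367 and 324 on the CD90+/CD133- arrays and 260.4, 281, 278, 262 and 308 on the CD90-/CD133- arrays. All CD90+/CD133+ arrays and all but 1 of the CD90+/CD133- arrays lay above the CD90-/CD133- arrays. The rise passed in CD90+/CD133+ cells (log2 fold change 0.66 with a standard error of 0.079, adjusted p = 6.63e-04) and did not pass in CD90+/CD133- cells (0.39, standard error 0.119, adjusted p = 0.0551, 0.0771 with the block). The second change passed under 6 other settings of probe sets, scaling, floor and fit (adjusted p of 0.0250 to 0.0435) and without CD90+/CD133- replicate 1 or 2 (0.0335 and 0.0362). The 30 expressed genes nearest to HILPDA had medians of 0.48 in CD90+/CD133+ cells and 0.53 in CD90+/CD133- cells, and their part was not tested.

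TFRC, the transferrin receptor through which cells take up iron, was bright in all fractions. It was at 6617, 6643, 6161, 6016 and 6884 on the CD90+/CD133+ arrays, 6893, 5999, 6598, 6826 and 7652 on the CD90+/CD133- arrays and 5929, 4673, 5493, 4499 and 5457 on the CD90-/CD133- arrays. The fractions lay close, and the lowest CD90+ arrays came near the highest CD90-/CD133- array without overlap. The rise was 1.25-fold in CD90+/CD133+ cells (log2 fold change 0.32 with a standard error of 0.0816, adjusted p = 0.0256 from limma) and 1.31-fold in CD90+/CD133- cells (log2 fold change 0.39 with a standard error of 0.0918, adjusted p = 0.0199). In CD90+/CD133+ cells the call was lost with the mean of all TFRC probe sets (adjusted p = 0.136), without CD90-/CD133- replicate 2 or CD90+/CD133+ replicate 1, 2 or 5 (0.0523 to 0.0618) and without replicate number 2, 3, 4 or 5 (0.0572 to 0.125). In CD90+/CD133- cells it was lost without CD90-/CD133- replicate 2 (0.0505) and without replicate number 3, 4 or 5 (0.0537 to 0.0904). The median of its 30 nearest expressed genes was 0.34 in CD90+/CD133+ cells and 0.37 in CD90+/CD133- cells, about as large as the change of TFRC, and their part was not tested.

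The 4 mitochondrial members had positive changes in both CD90+ fractions, of which few passed. AK4, an adenylate kinase of the mitochondrial matrix, was at 908, 1118, 1123, 1075 and 1162 on the CD90+/CD133+ arrays, 967, 1119, 820.5, 967 and 1215 on the CD90+/CD133- arrays and 780.0, 736, 807, 777 and 856 on the CD90-/CD133- arrays. Its CD90+/CD133+ arrays all lay above the CD90-/CD133- arrays, and 4 of the 5 CD90+/CD133- arrays did. The 4 AK4 probe sets with a mean of 64 or more were all higher in both fractions. They ranged from 0.12 to 0.63 in CD90+/CD133+ cells and from 0.35 to 0.87 in CD90+/CD133- cells on the log2 scale. For the probe set used, the log2 fold change was 0.44 in CD90+/CD133+ cells (standard error 0.0704, adjusted p = 0.00273 from limma) and 0.35 in CD90+/CD133- cells (standard error 0.101, adjusted p = 0.0427). The second call was lost with the block (adjusted p = 0.0608), with a floor of 64 (0.0536), in a per-gene test with no variance shared between genes (0.0533), without any of the arrays other than CD90+/CD133- replicate 3 (0.0520 to 0.100) and without replicate number 1, 2, 4 or 5 (0.0618 to 0.191).

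BNIP3, a receptor on the outer mitochondrial membrane for removal of mitochondria by autophagy, was at 1238, 1716, 1529, 1539 and 1143 on the CD90+/CD133+ arrays, 1121, 1646, 1394, 1374 and 858 on the CD90+/CD133- arrays and 1070.0, 1065, 969, 1043 and 915 on the CD90-/CD133- arrays. All CD90+/CD133+ arrays exceeded the CD90-/CD133- arrays, and CD90+/CD133- replicate 5 was the lowest array of all. The difference on the log2 scale was 0.49 in CD90+/CD133+ cells (standard error 0.114, adjusted p = 0.017 from limma) and 0.30 in CD90+/CD133- cells (standard error 0.163, adjusted p = 0.27, 0.0276 without CD90+/CD133- replicate 5). The first call was lost without replicate number 2, 3 or 4 (0.0601 to 0.0939). Its relative BNIP3L, which serves the same removal, averaged 1489 in CD90+/CD133+ cells, 1605 in CD90+/CD133- cells and 1287 in CD90-/CD133- cells and was not called. FAM162A, a mitochondrial protein, was at 3304, 3095, 2947, 2795 and 2552 on the CD90+/CD133+ arrays, 3031, 3319, 3203, 2863 and 2218 on the CD90+/CD133- arrays and 2695, 2484, 2783, 2129 and 2211 on the CD90-/CD133- arrays. Each CD90+ array exceeded the CD90-/CD133- array of its number while the groups overlapped, and the log2 fold change of 0.26 in CD90+/CD133+ cells passed with the block and not without it (adjusted p = 0.102, 0.0238 with the block). In CD90+/CD133- cells the change of 0.24 did not pass (adjusted p = 0.245, 0.0400 without CD90+/CD133- replicate 5).

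**Figure D2:**
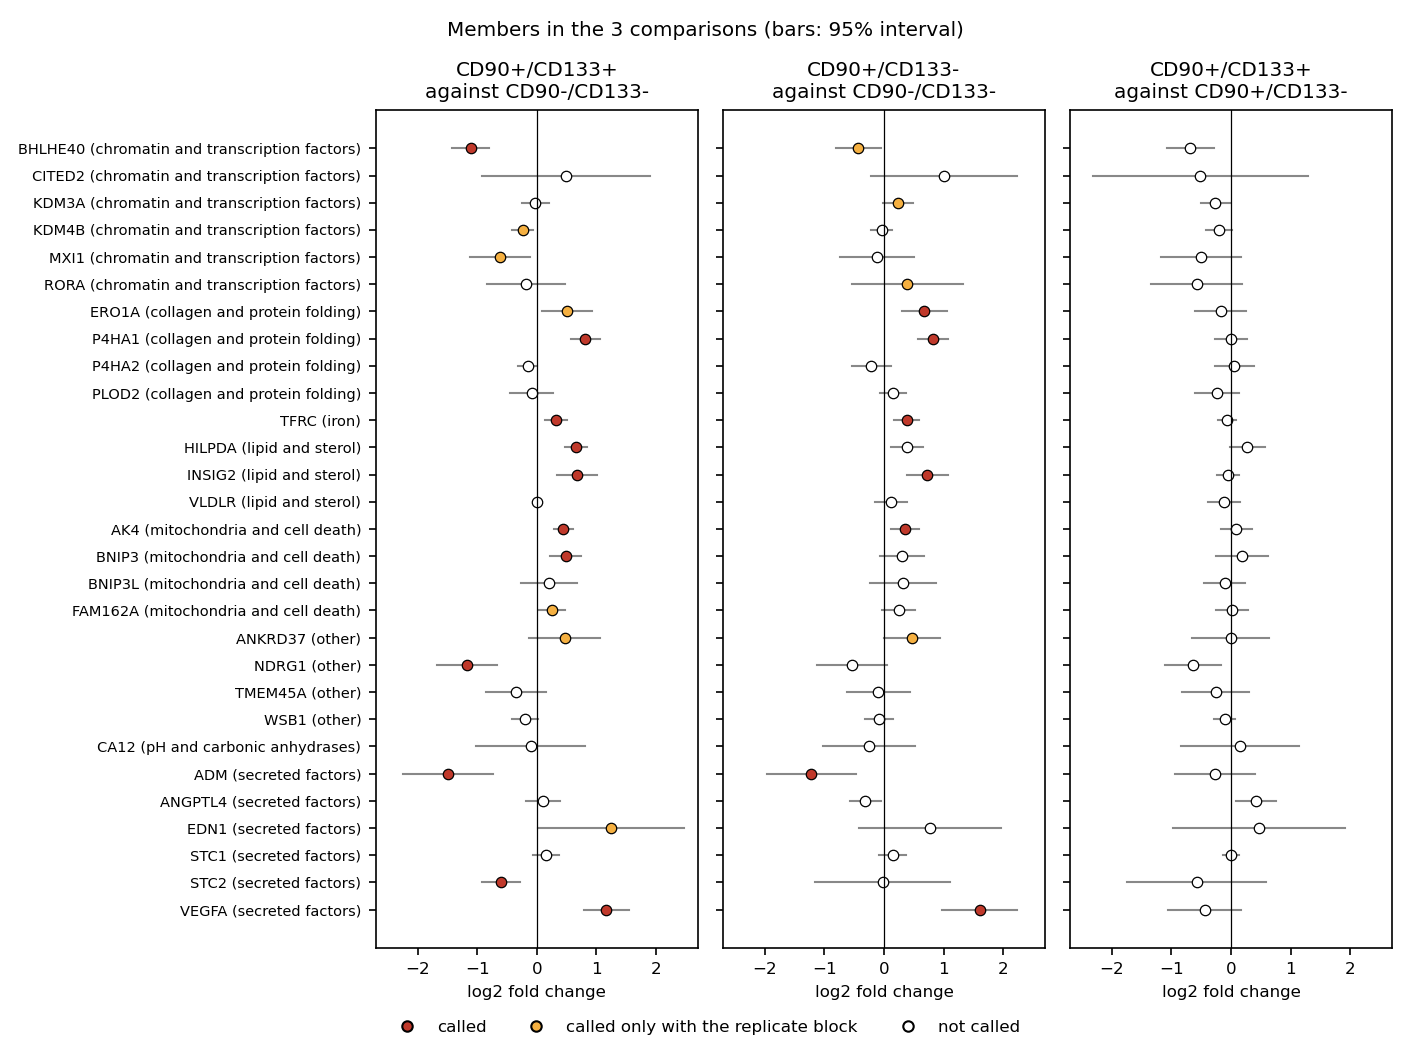
Log2 fold change of the 29 measured members, grouped by role, in CD90+/CD133+ and CD90+/CD133- cells against CD90-/CD133- cells and in CD90+/CD133+ against CD90+/CD133- cells, with 95% intervals for single genes from limma. Red points are called without the block (12 members in the first 2 panels together), orange points only with it, and no point of the right panel is filled.

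The transcription and chromatin genes held no member that was called higher without the block. BHLHE40, a basic helix-loop-helix repressor, was at 733, 553, 578, 577 and 801 on the CD90+/CD133+ arrays, 981, 842, 1005, 923 and 1506 on the CD90+/CD133- arrays and 1199.5, 1230.2, 1349.6, 1500.1 and 1704 on the CD90-/CD133- arrays. The CD90+/CD133+ arrays lay wholly below both other fractions, and in each replicate number the order was CD90+/CD133+ below CD90+/CD133- below CD90-/CD133-. The fitted log2 fold change came to -1.11 in CD90+/CD133+ cells (standard error 0.139, adjusted p = 7.98e-04 from limma) and -0.43 in CD90+/CD133- cells (standard error 0.168, adjusted p = 0.123, 0.0296 with the block). Without CD90+/CD133- replicate 5 the second value was -0.57 with adjusted p = 0.0124.

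MXI1, a partner of MAX that opposes MYC, was at 269, 375, 497, 342 and 533 on the CD90+/CD133+ arrays, 340.2, 467, 714, 511 and 895 on the CD90+/CD133- arrays and 441, 609, 627, 577 and 789.6 on the CD90-/CD133- arrays. The CD90+/CD133+ array was the lowest of its number in all 5. Its log2 fold change of -0.61 in CD90+/CD133+ cells (standard error 0.219) did not pass (adjusted p = 0.0898 from limma), and it passed with the block (adjusted p = 0.0063) and with brighter genes only in the fit (0.0314). In CD90+/CD133- cells the change was -0.11 (adjusted p = 0.978).

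The histone demethylases KDM3A and KDM4B were called with the block and not without it. KDM3A was at 321, 378, 398, 415 and 339.5 on the CD90+/CD133+ arrays, 349, 479, 468, 469 and 462 on the CD90+/CD133- arrays and 316, 388, 415, 416 and 354 on the CD90-/CD133- arrays. Its values in CD90+/CD133- cells passed with the block and not without it (log2 fold change 0.24, adjusted p = 0.205 from limma, 0.023 with the block, 0.0351 without CD90+/CD133- replicate 1). KDM4B was at 199, 196, 203, 166 and 162 on the CD90+/CD133+ arrays, 207, 222, 245, 203 and 184 on the CD90+/CD133- arrays and 209, 236, 225, 211 and 205 on the CD90-/CD133- arrays. The CD90+/CD133+ arrays lay below all CD90-/CD133- arrays, and the fall passed with the block and not without it (log2 fold change -0.24, adjusted p = 0.0648, 0.0308 with the block).

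CITED2, which competes with HIF-α for the coactivator CBP and so feeds back on HIF, split by replicate number more than by fraction. It was at 1742, 179, 231, 207 and 533 on the CD90+/CD133+ arrays, 2222, 297, 386, 343 and 545 on the CD90+/CD133- arrays and 382, 235, 205, 251 and 312 on the CD90-/CD133- arrays. Replicate 1 was far above the others in both CD90+ fractions and only moderately so in CD90-/CD133- cells. Neither the log2 fold change of 0.49 in CD90+/CD133+ cells (standard error 0.616, adjusted p = 0.738 from limma, 0.551 with the block) nor that of 1.01 in CD90+/CD133- cells (standard error 0.536, adjusted p = 0.268, 0.137 with the block) passed. RORA, a nuclear receptor, was dim, at 34.3, 34.2, 30.2, 34.4 and 49.6 on the CD90+/CD133+ arrays, 36.4, 43.7, 65.9, 37.0 and 116 on the CD90+/CD133- arrays and 28.0, 34.8, 41.3, 34.8 and 82.7 on the CD90-/CD133- arrays. Its CD90+/CD133- array exceeded the CD90-/CD133- array in every number, and the log2 fold change of 0.39 passed with the block and not without it (adjusted p = 0.649, 0.0415 with the block). The RORA probe sets ranked 2 to 5 in brightness, dimmer still, gave 0.08, -0.14, 0.01 and 0.10 in the same comparison.

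NDRG1, a stress-responsive gene known as a suppressor of metastasis in several cancers, was lower in CD90+/CD133+ cells. It was at 588, 817, 888, 662 and 615 on the CD90+/CD133+ arrays, 695, 1229, 1147, 1099 and 1465 on the CD90+/CD133- arrays and 1091, 1922, 1427, 2346 and 1426 on the CD90-/CD133- arrays. The CD90+/CD133+ arrays lay below all CD90-/CD133- arrays, while the CD90+/CD133- arrays overlapped with both. As a log2 fold change this was -1.17 in CD90+/CD133+ cells (standard error 0.218, adjusted p = 0.00592 from limma), held without any single array or replicate number, and -0.53 in CD90+/CD133- cells (standard error 0.255, adjusted p = 0.211, 0.107 with the block).

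ANKRD37, an ankyrin repeat protein, was at 135, 58.2, 81.0, 59.0 and 58.1 on the CD90+/CD133+ arrays, 108, 67.2, 87.6, 60.8 and 58.3 on the CD90+/CD133- arrays and 75.9, 46.7, 50.5, 47.9 and 51.0 on the CD90-/CD133- arrays. Replicate 1 was the highest in each fraction, and each CD90+ array exceeded the CD90-/CD133- array of its number. The log2 fold changes of 0.46 in CD90+/CD133+ cells (adjusted p = 0.297 from limma, 0.0486 with the block) and 0.47 in CD90+/CD133- cells (0.168, 0.0284 with the block) passed with the block and not without it. WSB1, a substrate receptor of a ubiquitin ligase, averaged 363 in CD90+/CD133+ cells, 391 in CD90+/CD133- cells and 415 in CD90-/CD133- cells. The transmembrane protein TMEM45A averaged 35.7 in CD90+/CD133+ cells, 42.6 in CD90+/CD133- cells and 45.5 in CD90-/CD133- cells. CA12, a membrane carbonic anhydrase that helps to set pH, averaged 173 in CD90+/CD133+ cells, 156 in CD90+/CD133- cells and 185 in CD90-/CD133- cells. None of these 3 was called, and with P4HA2, PLOD2, ANGPTL4, STC1, VLDLR, BNIP3L and CITED2 they make up the 10 members called in neither fit.

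The CD90+/CD133+ and CD90+/CD133- fractions were compared to ask whether CD133 added a difference within CD90+ cells. No member was called, with or without the block. Over all genes limma called 0.0152% higher and 0.0354% lower, and 0.0556% and 0.0405% with the block, so few genes of any kind passed in this comparison. PROM1 itself, with a log2 fold change of 4.38, was not called with or without the block. The lack of calls therefore does not show that the members were alike in the 2 fractions. The 2 members with the most negative changes, neither of which passed, were BHLHE40 (log2 fold change -0.68, 95% interval -1.08 to -0.28, adjusted p = 0.182 from limma, 0.0807 with the block) and NDRG1 (-0.64, 95% interval -1.11 to -0.16, adjusted p = 0.268, 0.161 with the block). The intervals of P4HA1 (-0.28 to 0.27) and INSIG2 (-0.24 to 0.12) were narrow, while those of EDN1 (-0.97 to 1.91) and CITED2 (-2.32 to 1.28) left room for large differences either way.

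Among the members, lower values in CD90+/CD133+ cells recurred across replicate numbers. VEGFA, ADM, NDRG1, KDM3A, KDM4B, MXI1, STC2, BHLHE40, CITED2 and RORA each had the lower value in CD90+/CD133+ cells in all 5 pairs of same-numbered CD90+ arrays, which is 10 of 29 members (34.5%), beside 9.39% of all genes and 14.7% of expressed genes. BNIP3, ANGPTL4 and EDN1 were higher in all 5 pairs, 10.3% of members beside 10.3% of all genes and 16.4% of expressed genes. By the methods' 1.5-fold rule 4 members were lower (NDRG1, STC2, BHLHE40 and RORA) and none was higher, beside 0.718% lower and 0.379% higher over all genes. This rested on 1 array, since without CD90+/CD133- replicate 5 the rule called 0 members lower, and without replicate number 5 in both fractions it called 1 (BHLHE40). The median log2 fold change over the members was -0.11, beside 0 for all genes with those at the floor included, and the median size of change was 0.20, beside 0.14 for expressed genes. The members also varied more than most genes, with a median SD of 0.394 on the log2 scale over the 15 arrays, beside 0.271 for expressed genes.

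**Figure D3:**
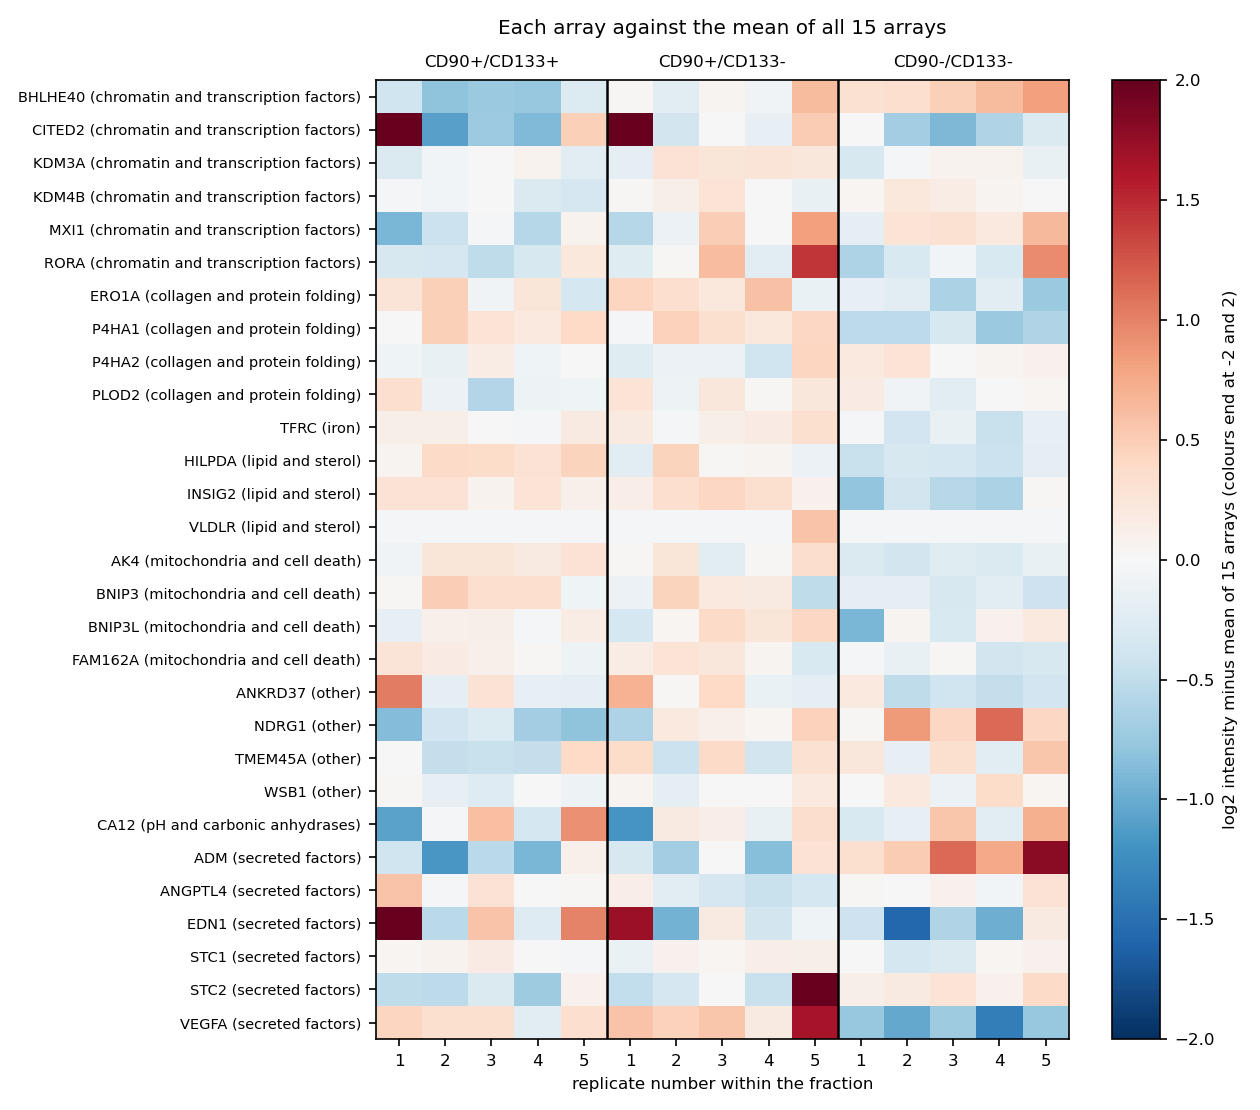
Log2 intensity of each measured member on each of the 15 arrays minus its mean over all arrays, with arrays ordered by fraction (CD90+/CD133+, CD90+/CD133-, CD90-/CD133-) and replicate number, and colours ending at -2 and 2. P4HA1 and VEGFA separate both CD90+ fractions from CD90-/CD133- cells, while CITED2, EDN1 and CA12 change with the replicate number across fractions.

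The replicate number and the fraction took up similar shares of the members' sum of squares. Over the 25 expressed members the fraction accounted for a median of 42.2% of the sum of squares and the replicate number for 41.1%, beside 40.1% and 35.2% over all expressed genes. There are 5 replicate numbers and 3 fractions, so random spread alone gives the number the larger share. Similar shares are therefore not similar effects. P4HA1 (84.8%), BHLHE40 (79.2%) and VEGFA (78.8%) followed the fraction most closely. CA12 had 83.6% of its spread between replicate numbers and 3.16% between fractions, and CITED2 (67.7%) and EDN1 (58.6%) also differed mainly between numbers. For CA12 the fractions of 1 number resembled each other more than the replicates of 1 fraction did, with replicate 5 the highest and replicate 1 the lowest array of every fraction.

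**Figure D4:**
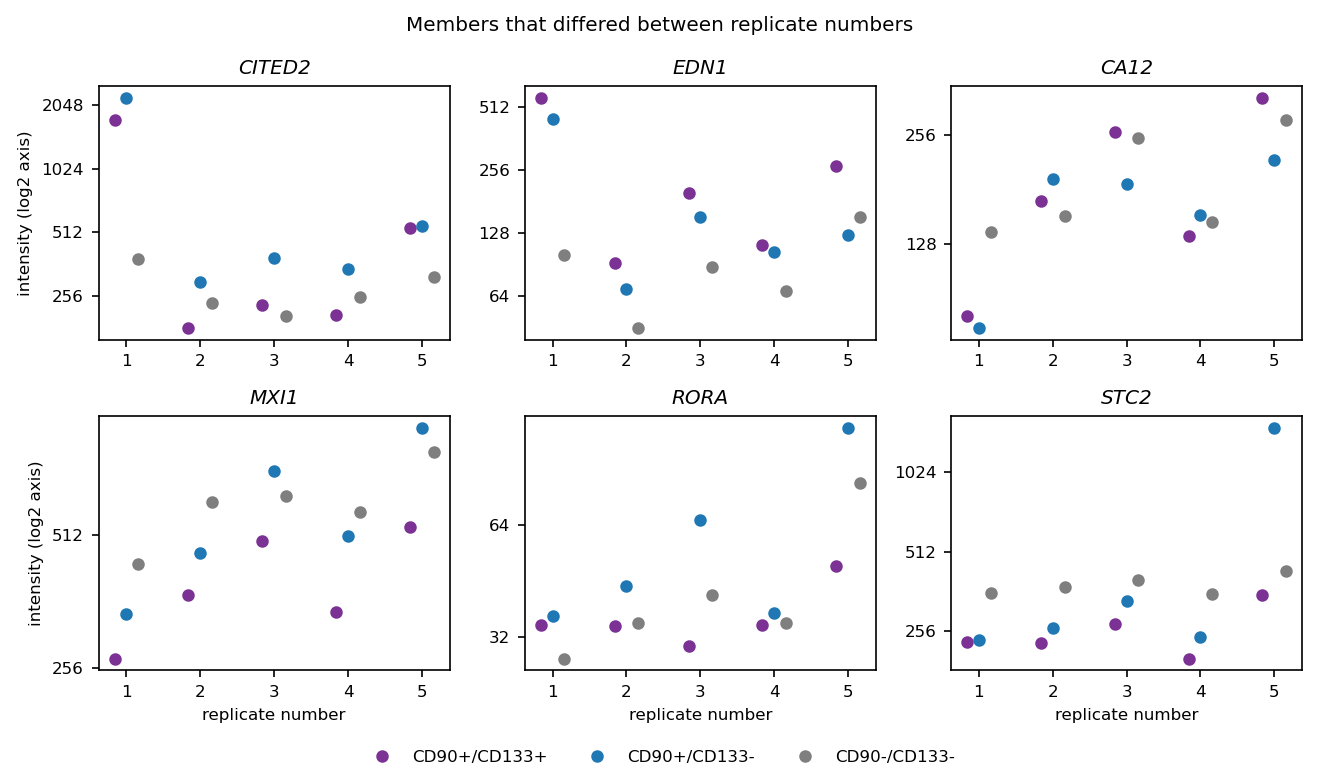
Intensity (log2 axis) of 6 members against replicate number, with 1 point per array coloured by fraction. CITED2 and EDN1 stand highest in replicate 1 of both CD90+ fractions, CA12, MXI1 and RORA stand highest in replicate 5 of every fraction, and STC2 has 1 array at 1503 in CD90+/CD133- replicate 5.

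Some members moved together from array to array within fractions. Over the deviations of 15 arrays from their fraction means, the 300 pairs of expressed members had a median Pearson correlation of 0.024, and 5 pairs lay over 0.8. These were CITED2 with EDN1 (Pearson 0.89, Spearman 0.83), CA12 with MXI1 (0.86 and 0.85), P4HA2 with STC2 (0.86 and 0.66), VEGFA with STC2 (0.85 and 0.74) and ADM with BHLHE40 (0.84 and 0.89). The lowest were ADM with ERO1A (-0.90 and -0.89), BNIP3 with BHLHE40 (-0.90 and -0.80) and KDM3A with CITED2 (-0.85 and -0.71). Without the 2 arrays farthest from the median of the first gene, VEGFA with STC2 came to 0.51 and P4HA2 with STC2 to 0.45, while the others stayed at 0.74 to 0.79 or at -0.76 to -0.85. Without replicate number 1 the positive pairs ran from 0.71 (CA12 with MXI1) to 0.90 and the negative ones from -0.66 (KDM3A with CITED2) to -0.94. Without replicate number 5 they ran from 0.59 (VEGFA with STC2) to 0.91 and from -0.74 (BNIP3 with BHLHE40) to -0.86. The arrays share replicate numbers, so these 15 points are fewer than 15 independent samples, and the values are descriptions. The share of pairs over 0.8 among all expressed genes was not computed, so the count of 5 is not shown to be particular to the members.

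Other genes of the pathway, from lists written for this work, are given by their counts beside the shares of all genes called, which were 9.57% higher and 10.8% lower in CD90+/CD133+ cells (13% and 15.2% with the block) and 9.08% higher and 9.88% lower in CD90+/CD133- cells (12% and 13.6% with the block). Of 12 genes of HIF subunits, hydroxylases and cofactors, 5 were higher and 1 was lower in CD90+/CD133+ cells (4 and 2 with the block), and 5 were higher and none lower in CD90+/CD133- cells (5 and 1 with the block), so 41.7% were higher in each fraction. EPAS1 (4.67-fold in CD90+/CD133+, 6.03-fold in CD90+/CD133- cells), HIF1A (2.04-fold in CD90+/CD133+, 2.50-fold in CD90+/CD133- cells), the prolyl hydroxylase EGLN1 (1.86-fold in CD90+/CD133+, 2.11-fold in CD90+/CD133- cells) and the asparaginyl hydroxylase HIF1AN (1.31-fold in CD90+/CD133+, 1.29-fold in CD90+/CD133- cells) rose in both. ARNT2, an alternative partner subunit, was lower in CD90+/CD133+ cells (-0.78 on the log2 scale, adjusted p = 0.0391 from limma).

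Of 20 HIF targets in glycolysis, 7 were higher and none lower in CD90+/CD133+ cells (8 and 2 with the block), and 4 were higher and 1 lower in CD90+/CD133- cells (7 and 4 with the block). The glucose transporter gene SLC2A1 rose 1.87-fold and the mutase gene PGAM1 1.81-fold in CD90+/CD133+ cells, and PFKFB3, which makes an activator of glycolysis, rose 2.07-fold in CD90+/CD133- cells. PGAM1 and PFKFB3 were called higher in both CD90+ fractions. PFKL was the gene called lower in CD90+/CD133- cells without the block. With the block TPI1, PGK1 and ENO1 were also lower there, and PFKFB4 and ENO1 were lower in CD90+/CD133+ cells. Of 21 further HIF targets, 2 were higher and 1 was lower in each fraction (3 and 3 with the block in CD90+/CD133+ cells, 4 and 2 in CD90+/CD133- cells), or 9.52% higher and 4.76% lower without the block, which is near or below the shares of all genes. The collagen cross-linking oxidase LOXL2 rose in both (1.95-fold in CD90+/CD133+, 1.87-fold in CD90+/CD133- cells), and the small GTPase gene RAB20 was lower in both (-0.80 in CD90+/CD133+ cells and -1.11 in CD90+/CD133- cells on the log2 scale). EGLN3, a prolyl hydroxylase that stands in the first and the third list, was called higher in CD90+/CD133+ cells (1.32-fold, adjusted p = 0.0102 from limma) and not with the block (0.0666). Between CD90+/CD133+ and CD90+/CD133- cells no gene of these lists was called. For these lists too, the shares of all genes take in genes not expressed, and shares called among expressed genes are not given.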

How the data were processed

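RNA of 15 sorted PEO1 samples, 5 from each of 3 fractions, had been hybridised as biotin-labelled cRNA to Affymetrix Human Genome U133 Plus arrays. The deposited values are probe set intensities on a linear scale, which the authors normalized between arrays with the cross-correlation method. How probes were summarised is not given in the sources used here. With a lowest value of 5, 32.7% to 34.5% of the values of an array lay under the floor of 16 set here, so changes of dim genes are understated. Of 54675 probe sets, 1801 carried several gene symbols and 11777 none. Control probe sets, 62 in all and some of them with a symbol, were left out, and 41091 with 1 symbol were used, of which 41037 were found in the RefSeq gene table with 0 symbols changed. They covered 19775 genes, of which 10523 had several probe sets and were read from the brightest by the mean over all arrays. No value column belonged to other samples.

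Groups and replicate numbers came from the sample titles. The design text speaks of triplicates, whereas 15 samples numbered 1 to 5 were given, and replicates 4 and 5 share a code in the labels. No pair of arrays was identical, and the highest correlation between arrays was 0.997. For each comparison limma 3.58.1 (R 4.3.3; lmFit and eBayes, 2-sided) was fitted on log2 intensity to the 10 arrays concerned, with Benjamini-Hochberg adjustment over all genes and a threshold of 0.05. Whether a number marks 1 culture or 1 day was not stated, and p-values measure the spread between these samples. Same-numbered samples deviated from their group means together, with correlations of 0.200 to 0.787 for CD90+/CD133- with CD90-/CD133- cells, 0.206 to 0.769 for CD90+/CD133+ with CD90-/CD133- cells and 0.371 to 0.853 for CD90+/CD133+ with CD90+/CD133- cells. Differently numbered samples averaged -0.10, -0.11 and -0.12 in these comparisons, with highest values of 0.193, 0.229 and 0.384. Number 3 had the lowest same-numbered correlation in each comparison. CD90+/CD133+ replicate 3 correlated at 0.206 with CD90-/CD133- replicate 3 and at 0.226 with CD90-/CD133- replicate 5. On these averages the numbers were taken to pair the samples, less clearly for number 3, and the block is the fit with the number as a factor.

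In simulated data for CD90+/CD133- against CD90-/CD133- cells, 200 of 19775 genes were changed. There the fit found 79% of the 2-fold and 98% of the 4-fold changes, and 3.28% of its calls were false. On the real arrays limma called far more genes in this comparison, 1796 higher and 1953 lower. Recovery where same-numbered arrays move together, as they do here, was not tested. The simulated rates therefore describe the simulation and cannot be taken as rates for these data. The alternatives tried were median centring, quantile normalization, the mean of all probe sets, the brightest probe set over the arrays compared, floors of 1 and 64, brighter genes only, an intensity trend, all fractions in 1 fit, the replicate block, a per-gene test with no variance shared between genes, the methods' rule of 1.5-fold between averages, and omission of each array or replicate number. The 1.5-fold rule with arrays left out was added after seeing the data. Permutation tests used scipy 1.17.1 (Python 3.11.15).

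The members and gene lists were chosen with earlier results of these data known. All measured members are named, with every array's value where called with or without the block. Of the other lists, at most 4 called genes per comparison are named by size of change, beside the sort genes THY1 and PROM1 and the α subunit genes HIF1A and EPAS1. PFKL, TPI1, PGK1, ENO1 and PFKFB4 are named as glycolysis genes called lower with or without the block. CA9 was not analysed here.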

Additional observations from a re-analysis of the deposited data

Results flagged for a closer look

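A single array lay far from the other 4 of its fraction for 7 of the 85 groups of member values that could be checked, by a gap test that picks out about 1 group in 20 by chance. In CD90+/CD133- cells replicate 5 stood high for 3 members. VEGFA was at 1281 there, against 462 to 603 on the other arrays of the fraction, STC2 was at 1503, against 237 to 333, and VLDLR was at 24.4 with the others at the floor of 16. With 4 arrays at the floor any higher array is picked out, so the rate of 1 in 20 does not apply to VLDLR. The CD90+/CD133- fraction also held a low array for KDM3A, with replicate 1 at 349 and the others at 462 to 479. In CD90+/CD133+ cells VEGFA was low in replicate 4, at 352 against 512 to 550.4 on the others, and RORA was high in replicate 5, at 49.6 against 30.2 to 34.4. In CD90-/CD133- cells ANKRD37 was high in replicate 1, at 75.9 against 46.7 to 51.0.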

How the results depend on the processing

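No member changed sign while called, in 486 values under the alternatives for called members. Of these values, 205 kept their call and 11 lost it under other settings, and 211 kept it and 59 lost it where an array or replicate number was left out. For members not called, 28 of the values under other settings and 17 of those with samples left out passed. With the replicate block 11 members were higher in CD90+/CD133+ cells, against 7 without it, and 2 were lower in CD90+/CD133- cells, against 1, both relative to CD90-/CD133- cells. The block took 1 call away, that of AK4 in CD90+/CD133- cells. By the 1.5-fold rule 4 members were lower in CD90+/CD133+ cells against CD90+/CD133- cells, where limma called 0. Leaving out arrays or numbers under this rule, an alternative chosen after seeing the data, that count ran from 0 (without CD90+/CD133- replicate 5) to 7 (without CD90+/CD133- replicate 2), with 1 without number 5, and the count higher from 0 to 1 (EDN1). Against CD90-/CD133- cells the same omissions gave 4 to 8 higher and 3 to 5 lower in CD90+/CD133+ cells, and 5 to 7 higher and 1 to 2 lower in CD90+/CD133- cells. By limma, leaving out arrays or numbers, the count higher in CD90+/CD133- cells ran from 2 to 7 (lowest without number 4) and the count lower from 0 to 4. It was 0 without number 2, 3 or 4, CD90+/CD133- replicate 2, 3 or 4 or CD90-/CD133- replicate 3 or 4, and 4 without number 5 or CD90+/CD133- replicate 5. In CD90+/CD133+ cells the count higher ran from 4 (without number 2, 3 or 4) to 7 and the count lower from 2 (without number 2 or 4) to 5. Leaving out a number leaves 4 arrays per fraction, so fewer samples enter each test. Dim members such as STC1, VLDLR and TMEM45A lie near the floor, where the arrays resolve little.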
